A study of Mus musculus with 4 samples.

Results

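The genes described here are the liver X receptors (LXRs) and genes of sterol efflux: the receptors Nr1h2 and Nr1h3, the sterol transporters Abca1, Abcg1, Abcg4 and Abcg5, the ubiquitin ligase Mylip and the apolipoprotein Apoe. They were chosen by name, through every probe whose gene name in the array design was one of these symbols. All 8 genes were on the array, with 11 probes on 20 spots, of 35737 genes and 55681 probes in all. On all 4 arrays 7 of the 8 genes were well above background (detected). Abcg5 was detected on the lutein array alone.

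LXRs are nuclear receptors that sense oxysterols and desmosterol, pair with retinoid X receptors and bind direct repeats of AGGTCA 4 bases apart (DR4). When sterols accumulate they raise transcription of transporters that move cholesterol out of the cell onto apolipoproteins, and of Mylip, which marks lipoprotein receptors for degradation and so lowers sterol uptake. In the retina, as in brain, apolipoprotein E is made mainly by glia, and photoreceptors are rich in membrane lipid that is renewed throughout life.

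The samples were 3D-retinas, optic-cup-like structures grown in floating culture from mouse induced pluripotent stem cells that carry the reporter Nrl-GFP, in which green fluorescent protein follows the rod gene Nrl. Structures with bright fluorescence were picked on differentiation day (DD) 23, treated, and collected on DD 25, which the labels give as the onset of photoreceptor degeneration. All 4 groups came from Nrl-GFP cells, and each was 1 pool of 24 3D-retinas, of which 50 ng RNA was labelled for 1 array. The control group received the vehicle, ethanol. The second group received 4-hydroxytamoxifen (4-OHT, the active metabolite of tamoxifen) at 5 µM. The other two groups received 5 µM 4-OHT together with either vitamin E, a lipid-soluble antioxidant, at 400 µM or lutein, a carotenoid of the macula, at 200 nM. None of the 4 groups received vitamin E or lutein without 4-OHT, so the effect of a supplement alone was not measured. The design compares 4-OHT with vehicle and asks how each supplement changes the response. With 1 array per group no difference has a replicate check, so no p-value, SD between samples or n is given, and 2-fold is a fixed size for counting a gene, not a test.

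A level is the log2 signal of a probe minus the array's own 75th percentile over gene spots, so that 0 is the signal of a fairly bright spot. A difference is the first named array's level minus the second's. For probes with 10 spots per array the spot-to-spot SD gave an SD of 0.157 to 0.174 for a log2 difference between single spots, depending on the arrays compared, which covers noise within the arrays and not variation between cultures. The share of gene spots well above background ran from 51.3% to 54.5% per array, and no spot was saturated. The 4 arrays shared 1 slide and 1 scan, and a group cannot be told apart from its place on that slide. The labelled tissue had its markers: Rax, Pax6, Six3, Six6 and Otx2, genes of neural retina identity, and all 10 rod genes were detected on every array.

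The transporters carried the widest differences of the group, and their probes are shown because the values below rest on these stretches of transcript. Each probe is 60 bases long, and the last 30 bases are given 5′ to 3′ on the strand of the transcript, with capitals for AATAAA, the polyadenylation hexamer, where it occurs.
Abca1: ttccataaggattcggtatgttcttttccc
Abcg1: tttgcttgttctatacaaacacggccttgc
Abcg4, first probe: agagaccagttgtatttgtgggatttcacc
Abcg4, second probe: tgtgggatttcacccattattAATAAAacc
In the mm9 build the Abca1 probe lies at chr4:53043944-53044003 on the minus strand and the Abcg1 probe at chr17:31252580-31252639 on the plus strand. The Abcg4 probes lie at chr9:44081302-44081361 and chr9:44081286-44081345 on the minus strand. They start 16 bases apart and share 44 bases, so they are close to a repeat of one measurement. Whether a probe lies in an exon or a UTR of mm9 was not analysed here.

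Abca1 hands cholesterol and phospholipid to lipid-poor apolipoproteins. Its level was 1.74 on the vehicle array, 0.07 with 4-OHT, 0.67 with 4-OHT and vitamin E, and 0.16 with 4-OHT and lutein. Vehicle was the highest of the 4 arrays, vitamin E came next, and the lutein and 4-OHT arrays lay within the spot-to-spot SD of each other. The 4-OHT array was 3.18-fold lower than vehicle, a log2 difference of -1.67. Of the genes with a gene symbol, 0.567% had a lower difference in that comparison. Adding vitamin E gave 0.60 over 4-OHT, and adding lutein gave 0.09. Abca1 was still 2.10-fold below vehicle with vitamin E and 2.99-fold below with lutein, so all 3 arrays that received 4-OHT stood past 2-fold. These 3 differences share the 1 Abca1 spot of the vehicle array, so a high value of that spot enters all of them.

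Abcg1 passes cholesterol to lipoprotein particles that already hold lipid. Its level was 4.98 on the vehicle array, 3.72 with 4-OHT, 4.61 with vitamin E added and 4.16 with lutein added. All 4 levels were apart by more than the spot-to-spot SD, in the order vehicle, vitamin E, lutein, 4-OHT. With 4-OHT it was 2.39-fold lower than vehicle (log2 difference -1.26, with 1.69% of genes with a symbol lower still). The difference from 4-OHT was 0.89 with vitamin E and 0.44 with lutein. Against vehicle these arrays stood at -0.37 and -0.82, both short of 2-fold.

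Abcg4 is the closest relative of Abcg1 and is known mainly from neural tissue. Its first probe had levels of 5.47 on the vehicle array, 4.52 with 4-OHT, 5.32 with vitamin E added and 4.91 with lutein added. The order was that of Abca1 and Abcg1, but vehicle and vitamin E lay close together, at -0.15 by this probe, within the spot-to-spot SD, and -0.19 by the second, just beyond it. The log2 difference of 4-OHT from vehicle was -0.95, 1.93-fold lower and just short of 2-fold, and the second probe gave -0.99. Vitamin E added 0.80 and lutein 0.39 over 4-OHT, against 0.79 and 0.42 by the second probe. With spike-in scaling, in which each array is set on 7 added control probes instead of its 75th percentile, Abcg4 passed 2-fold at -1.09.

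Abcg5 works with Abcg8 as a transporter known from liver and intestine, where it exports plant sterols. Its probe, at chr17:85057593-85057652 on the minus strand, was not well above background with vehicle, with 4-OHT or with vitamin E added. On the lutein array its 1 spot was well above background, at a level of -3.79, against a lowest detected level of -4.13 there. That made it at least 1.51-fold higher than 4-OHT and at least 1.40-fold higher than vehicle. Both are lower bounds, so whether either difference passed 2-fold is not known. Abcg8 was below detection on all 4 arrays. The Abcg5 value therefore rests on 1 dim spot, next to a partner that was not detected.

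**Figure D1:**
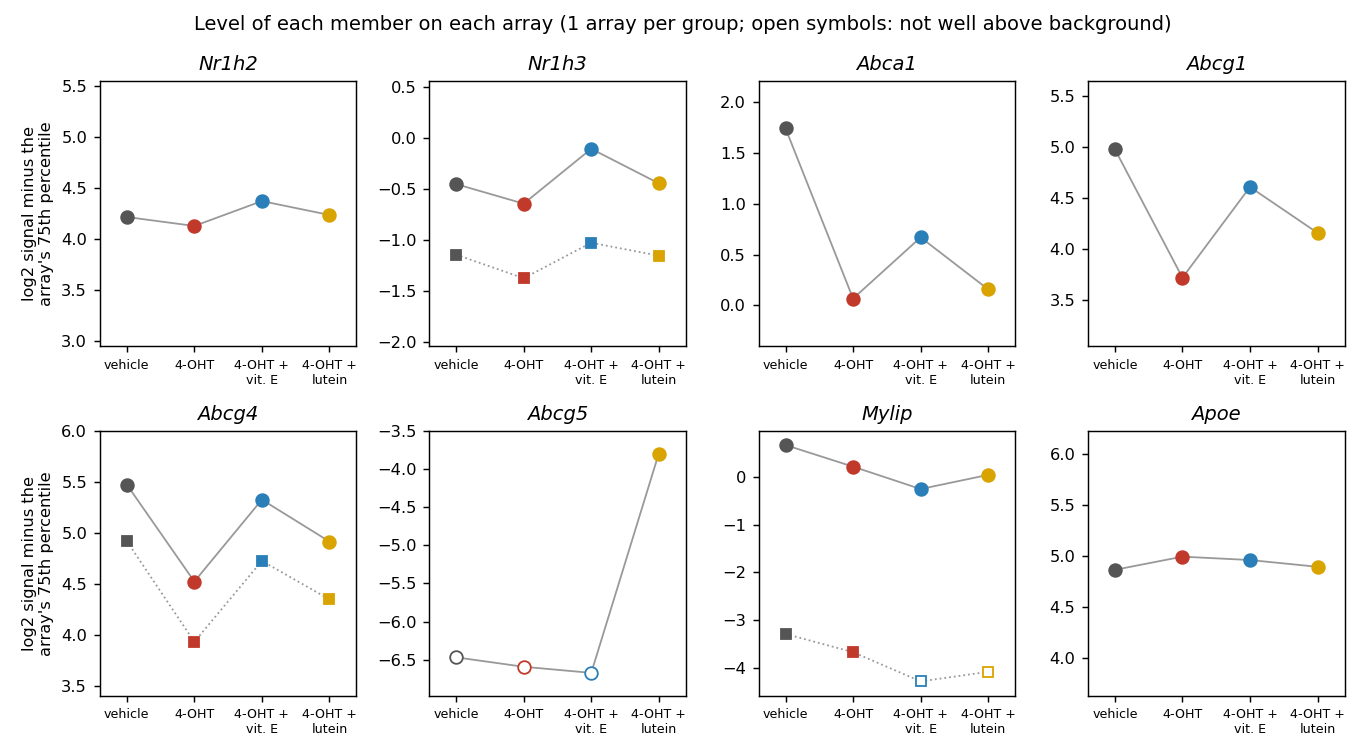
Level of each gene on each array, as log2 signal minus the array's 75th percentile over gene spots, with 1 array per group; circles are the probe that stands for the gene, squares a second probe, and open symbols a probe not well above background. Abca1, Abcg1 and Abcg4 share the order vehicle, vitamin E, lutein, 4-OHT, but only Abcg1 has every step beyond the spot-to-spot SD. Lutein and 4-OHT for Abca1, and vehicle and vitamin E for the circles of Abcg4, lie within it. Apoe stays between 4.87 and 4.99, and Abcg5 is detected with lutein alone.

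The receptors themselves differed less. Nr1h2 (LXRβ, the broadly expressed form) had levels of 4.22 with vehicle, 4.13 with 4-OHT, 4.37 with vitamin E added and 4.24 with lutein added. When the arrays were ranked from lowest to highest level, each lay within the spot-to-spot SD of the next. The difference of 4-OHT from vehicle was -0.09, against a median of -0.13 over 13931 genes with a gene symbol, and quantile normalization turned it to 0.07. Vitamin E gave 0.24 over 4-OHT, which was beyond the spot-to-spot SD, and lutein gave 0.11. The probe lies at chr7:51805013-51805072 on the minus strand.

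Nr1h3 (LXRα, the form best known from liver and macrophages) had levels of -0.46 with vehicle, -0.65 with 4-OHT, -0.11 with vitamin E added and -0.45 with lutein added. Vitamin E was the highest array, vehicle and lutein were within the spot-to-spot SD of each other, and 4-OHT was the lowest. The log2 difference of 4-OHT from vehicle was -0.19, and a second probe, whose start lies 95 bases away, gave -0.23. Adding vitamin E gave 0.54 over 4-OHT by the first probe and 0.35 by the second. Against vehicle the vitamin E array stood at 0.35 by the first probe and 0.12 by the second, so the second probe did not place it beyond the spot-to-spot SD. The probes lie at chr2:91024250-91024309 and chr2:91024345-91024404 on the minus strand.

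The remaining LXR targets of the group departed from the transporters. Mylip (also called Idol) is the ubiquitin ligase that sends lipoprotein receptors to degradation. Its probes are shown because they start 3171 bases apart in the mm9 genome and differ in brightness. Their distance along the transcript was not analysed here.
Mylip, first probe: ttgggcattttggatgctagtgagctaggg
Mylip, second probe: acatcaagagaacatccaaagaggtctatg
They lie at chr13:45506979-45507038 and chr13:45503808-45503867 on the plus strand. The first probe had levels of 0.66 with vehicle, 0.21 with 4-OHT, -0.26 with vitamin E added and 0.04 with lutein added. Vehicle was again the highest array, but here vitamin E was the lowest, and lutein lay below 4-OHT by little more than the spot-to-spot SD.

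The log2 difference of Mylip from vehicle was -0.45 with 4-OHT, -0.92 with vitamin E and -0.62 with lutein. The vitamin E array was 1.89-fold below vehicle, and 1.32% of genes with a symbol had a lower difference in that comparison. Vitamin E added to 4-OHT gave -0.47, opposite in sign to the transporters. The second probe was dim. It gave -0.38 for 4-OHT against vehicle and fell below detection with both supplements, so no difference is given for them. Its levels there were -4.28 with vitamin E added and -4.08 with lutein added, below its -3.29 with vehicle.

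Apoe carries cholesterol between cells in lipoprotein particles. Its probe had 10 spots on each array, at chr7:20281732-20281791 on the minus strand, and the SD over those spots was between 0.018 and 0.037. The levels were 4.87 with vehicle, 4.99 with 4-OHT, 4.96 with vitamin E added and 4.90 with lutein added. All 4 arrays lay close together. The difference of 4-OHT from vehicle was 0.13 and turned to -0.01 with spike-in scaling, so no direction is given for it.

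Counted together, 2 of the 7 measured genes were at least 2-fold lower with 4-OHT than with vehicle, Abca1 and Abcg1, and 0 were 2-fold higher. The background in that comparison was 3.15% of all genes lower and 7.75% higher, or 3.42% and 5.86% of genes with a gene symbol. The difference was negative for 6 of the 7 genes, and its median was -0.45, against -0.13 for genes with a symbol, of which 60.4% lay below 0. The 3 measured transporters had a median of -1.26 and the 2 receptors of -0.14. The split of all genes past 2-fold with 4-OHT depended on scaling, with 71.1% of them higher than vehicle under the main scaling and 55.1% under spike-in scaling.

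**Figure D2:**
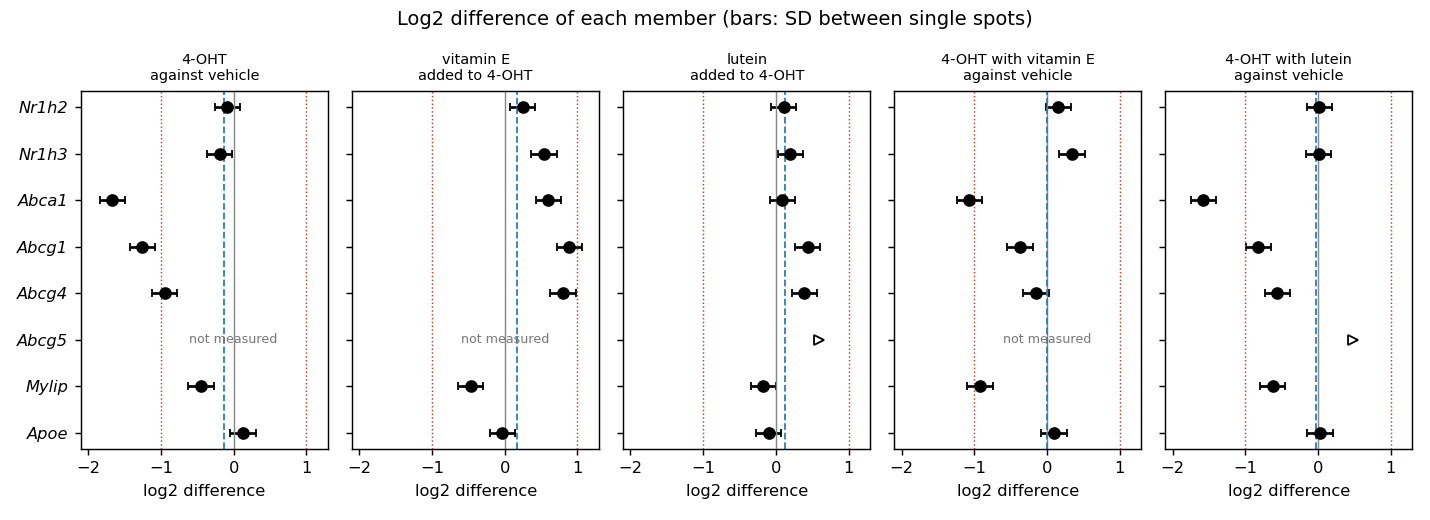
Log2 difference of each gene in 5 comparisons, named first array minus second; bars are the largest SD between single spots (0.174), open triangles are lower bounds, red dotted lines mark 2-fold, and the blue dashed line is the median of genes with a gene symbol. With 4-OHT, Abca1 (-1.67) and Abcg1 (-1.26) pass 2-fold and Abcg4 (-0.95) comes close. The receptors stay near the median, and Apoe (0.13) lies 0.26 above it.

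Vitamin E added to 4-OHT left 0 of 7 genes past 2-fold in either direction, where 1.49% of all genes were higher and 8.81% lower than with 4-OHT alone (1.45% and 5.08% of genes with a symbol). Of the 7 genes 5 lay above 0, the receptors and the 3 transporters, with a median of 0.54 over all 7. The median of genes with a symbol was 0.17. This comparison shares the 4-OHT array with the one against vehicle, so a low value on that array enters both. Spike-in scaling raised every value here, to 1.10 for Abcg1 and 1.02 for Abcg4, which passed 2-fold, and it turned Apoe from -0.03 to 0.18. Of all genes past 2-fold 14.4% were higher with vitamin E under the main scaling, 33.3% under spike-in scaling and 30.8% under quantile normalization.

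Lutein added to 4-OHT also left 0 of 7 genes past 2-fold, where 1.15% of all genes were higher and 3.84% lower (0.735% and 1.42% of genes with a symbol). Again the receptors and the 3 transporters lay above 0 and Mylip and Apoe below, with a median of 0.11 against 0.13 for genes with a symbol. Those signs were not firm for Nr1h2, at -0.004 with quantile normalization, and for Apoe, at 0.01 with spike-in scaling. Abcg1 (0.44), Abcg4 (0.39) and Nr1h3 (0.20) were beyond the spot-to-spot SD. Abca1 (0.09) and Nr1h2 (0.11) were not. Mylip, at -0.17, was just beyond it. The vitamin E and lutein comparisons share the 4-OHT array, and the doses of the supplements differ, so their values are given side by side with no test between them.

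Against vehicle, 1 of the 7 genes remained at least 2-fold lower with vitamin E, where 1.98% of all genes were lower and 1.09% higher (1.09% and 1.10% of genes with a symbol). It was Abca1, at -1.07 and close to the limit, since spike-in scaling gave -0.99. The next lowest was Mylip at -0.92, whereas Abcg4 was near vehicle, at -0.15 by its first probe and -0.19 by its second. The share of higher genes among those past 2-fold was 35.4% under the main scaling, 45.6% under quantile normalization and 45.5% under spike-in scaling. With lutein Abca1 was again the 1 gene past 2-fold, at -1.58, where 1.49% of all genes were lower and 3.43% higher (206 and 464 of 13723 genes with a symbol). The medians of the 7 genes were -0.15 with vitamin E and -0.56 with lutein, against 0.01 and -0.02 for genes with a symbol. Every comparison with vehicle shares the vehicle array, so a high value on that array enters each of them.

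**Figure D3:**
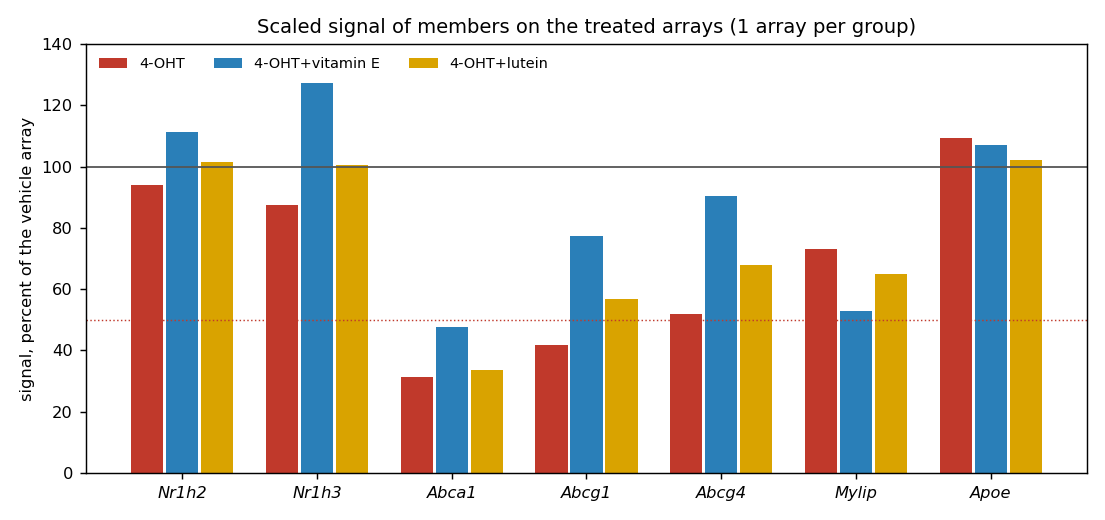
Signal of the 7 genes detected on all arrays as a percent of the vehicle array after scaling each array on its 75th percentile; each bar is 1 array, the black line is vehicle and the red dotted line is 2-fold lower. Abca1 is at 31.5%, 47.7% and 33.5% with 4-OHT, vitamin E added and lutein added, Abcg1 at 41.8%, 77.4% and 56.7%, and Abcg4 at 51.7%, 90.3% and 67.9%.

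Rod markers had the transporters' order of arrays. The summed level of the 10 rod genes, as signal in units of the 75th percentile, was 1167 with vehicle, 540.2 with 4-OHT, 919.8 with vitamin E added and 692 with lutein added. Nrl alone made up between 43.5% (vehicle) and 55.9% (4-OHT) of the sum. Of these genes 9 of 10 had the order vehicle, vitamin E, lutein, 4-OHT, as did 24.2% of the 12921 genes with a symbol detected on all arrays. With 4-OHT 5 of 10 were at least 2-fold lower than vehicle, and the median log2 difference was -1.09, between the values of Abcg1 and Abcg4. Their part in the transporter values was not tested. In RNA from whole 3D-retinas fewer cells of a type and less RNA per cell cannot be told apart.

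Müller glia and astrocyte genes, the cell types that make most apolipoprotein E, were detected for 11 of 11 with 4-OHT and lutein and 10 of 11 otherwise. Their summed level lay between 67.8 (vehicle) and 82.9 (lutein), and 1 of 11 was at least 2-fold lower and 1 higher with 4-OHT. Amacrine, horizontal and ganglion cell markers (8 of 10 detected) summed to between 74.1 and 84.6, but Slc6a9, a glycine transporter, made up at least 92.5% of each sum. With 4-OHT 6 of those 8 genes lay below vehicle, with a median of -0.21, and Gad1, an enzyme of GABA synthesis, was 2.02-fold lower. Gad1 had levels of 1.45 with vehicle, 0.43 with 4-OHT, 0.71 with vitamin E added and 0.41 with lutein added. Of the 8 detected genes of this list 0 held the transporters' order of arrays.

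Macrophages also express Nr1h3, Abca1 and Apoe. Of the 11 microglia and macrophage markers 6 (Aif1, Cx3cr1, P2ry12, Ptprc, C1qa and Tyrobp) were below detection on all 4 arrays. The summed level of the list was 12.9 with vehicle, 32.0 with 4-OHT, 12.9 with vitamin E added and 17.4 with lutein added, and the integrin Itgam made up between 77.8% and 87.9% of it. With 4-OHT Itgam and the lysosomal protein Cd68 were 2.81-fold and 5.20-fold higher, whereas Tmem119 was at least 4.04-fold lower. Of the pigment epithelium markers Rpe65, Best1 and Lrat were not detected, and the sum ranged from 3.23 with vehicle to 11.9 with 4-OHT. That rise was carried by the melanin enzyme Dct, 5.37-fold higher with 4-OHT, while 3 of the 5 measured markers lay below vehicle and the median was -0.12. Of the endothelial markers Cdh5, Tek and Vwf were not detected, and the sum, at least 98.0% of it Kdr, ranged from 21.0 to 23.8. The part of these cell types in the results was not tested.

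The partners and cofactors that act with LXRs showed no gene past 2-fold. All 8 were detected on every array, and with 4-OHT 4 lay below vehicle and 4 above, with a median of -0.02. The retinoid X receptors, the obligate partners, stood at -0.57 for Rxra, 0.03 for Rxrb and -0.70 for Rxrg, the form found in cone photoreceptors. Vitamin E gave 0.52 for Rxra and 0.50 for Rxrg over 4-OHT, and lutein 0.49 and 0.18.

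Other known LXR targets were divided. Of 14 genes 11 were measured (Abcg8, Pltp and Mertk were not detected), and with 4-OHT 2 were higher by at least 2-fold and 0 lower. The median was 0.14. Those higher were Smpdl3a, a secreted phosphodiesterase, at 1.14, and Mlxipl (ChREBP), a glucose-responsive transcription factor, at 1.23. Mlxipl had levels of 1.63 with vehicle, 2.86 with 4-OHT, 1.32 with vitamin E added and 1.80 with lutein added, so that the 4-OHT array stood above the other three. It was more than 2-fold lower than with 4-OHT alone under either supplement, at -1.54 and -1.06. The transporters' order of arrays was held by 2 of the 11 (18.2%), against 24.2% of genes with a symbol. These were Lpl, a lipase of lipoprotein particles, and Arl4c, a small GTPase, named after their values were seen. Lpl stood at -0.80 and Arl4c at -0.35 with 4-OHT against vehicle, where 5 of the 11 lay below 0 and 6 above. Srebf1, also named after its values were seen, stood at -0.75 there. Over 4-OHT it was 0.80 with vitamin E and 0.42 with lutein. Its vitamin E array lay 0.04 above vehicle, within the spot-to-spot SD, so it did not hold the order.

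The other targets past 2-fold lay in the comparisons with supplements. Scd1, a fatty acid desaturase, was 1.16 above vehicle with vitamin E, 0.96 with lutein and 0.57 with 4-OHT alone. Apoc1, an apolipoprotein whose gene neighbours Apoe, was -0.57 with 4-OHT, -0.53 with vitamin E and -1.08 with lutein against vehicle. The neighbouring Apoe stood at 0.13, 0.10 and 0.03 in the same comparisons.

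**Figure D4:**
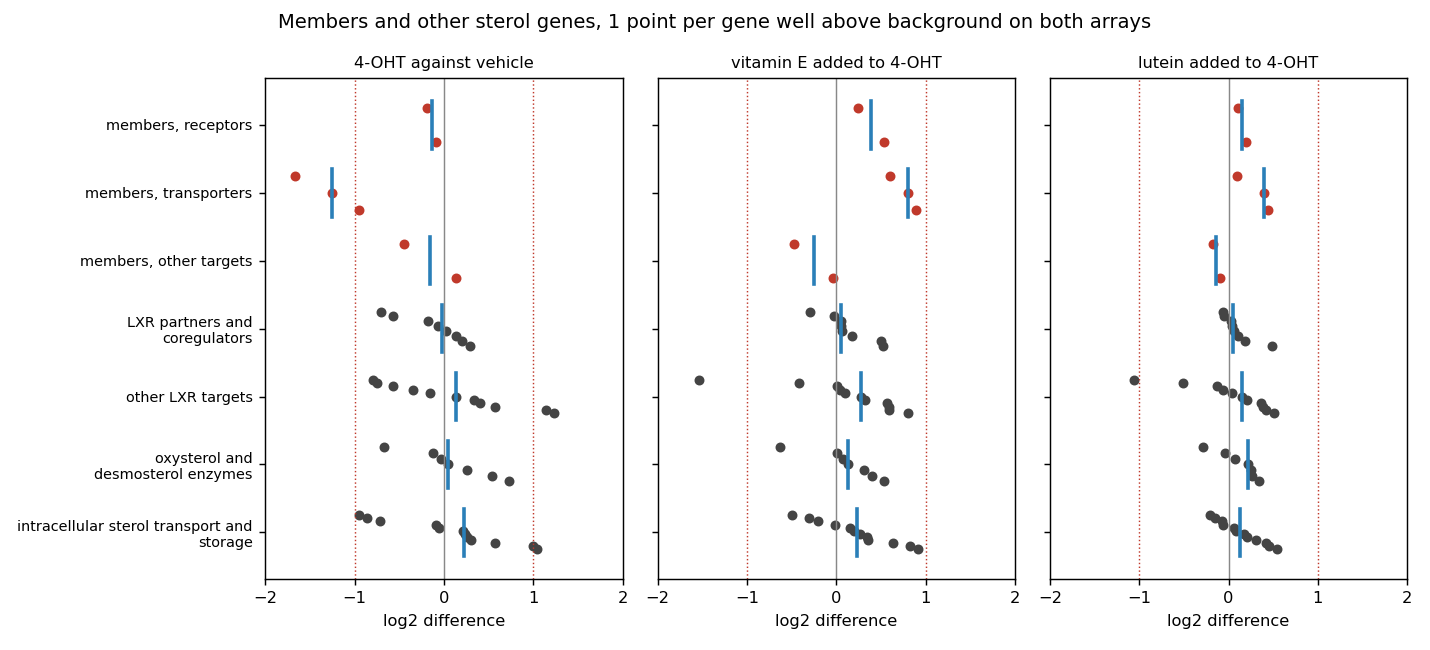
Log2 differences of the genes described here (red) and of other sterol gene lists (grey) in 3 comparisons, 1 point per gene well above background on both arrays; blue bars are list medians and red dotted lines mark 2-fold. With 4-OHT the transporters have a median of -1.26, whereas the medians of the grey lists plotted lie between -0.02 and 0.22.

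Genes that make or clear the sterols sensed by LXRs were measured for 7 of 10, and 0 were past 2-fold in any of the 5 comparisons. Their median with 4-OHT was 0.04. Cyp46a1, which makes 24-hydroxycholesterol in neurons, stood at -0.03 with 4-OHT, whereas Cyp27a1 and Ch25h, which make side-chain oxysterols, were below detection on all 4 arrays, as was Cyp11a1. Of 13 genes of sterol transport and storage inside the cell 12 were measured, and 1 was past 2-fold with 4-OHT. It was Soat1, which esterifies cholesterol for storage, at 1.04, and it was dim, with levels of -3.77 with vehicle and -2.73 with 4-OHT. The list's median was 0.22, with 5 of the 12 below vehicle and 7 above. The transporters' order of arrays was held by 2 of the 12 (16.7%), against 24.2% of genes with a symbol. These were Nceh1 and Scarb1, named after their values were seen. They stood at -0.95 and -0.86 with 4-OHT against vehicle, beside -0.95 for Abcg4.

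Vldlr and Lrp8, lipoprotein receptors that Mylip sends to degradation, were measured at the RNA level alone. They are named although short of 2-fold, after their values were seen. With 4-OHT they stood at 0.33 and -0.03 against vehicle, with vitamin E added at 0.09 and 0.21, and with lutein added at 0.35 and 0.17.

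Promoters were searched because LXRs bind DR4 elements. RefSeq's windows of 300 bases (250 before to 50 after the transcript start, GRCm38.p6) covered 6 of the 8 genes. Of the transporters these were Abca1 and Abcg5, beside Nr1h2, Nr1h3, Mylip and Apoe. Abcg1 and Abcg4 are not listed there, and sites outside the windows were not searched. A DR4 with at most 2 mismatches over its 12 fixed bases, on either strand, was found in 0 of the 6 genes and in 3.02% of 32851 windows. With at most 3 mismatches, a setting added after that search, Abca1 alone had a match, and 21.9% of all windows had one. The sterol regulatory element TCACNCCAC was found in 0 of the 6 genes and in 1.24% of windows. The Abca1 stretch is shown because Abca1 had the widest difference, with capitals for the match, which reads on the opposite strand as GGGTTA (2 mismatches), 4 bases, then CGGTCA (1 mismatch).
Abca1 promoter: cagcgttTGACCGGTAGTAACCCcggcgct
It lies at chr4:53159940-53159969 on the minus strand, with the match from -67 to -52 relative to the start. The match describes these letters, and binding to them was not measured in these data.

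Genes with the most similar profiles were sought for Abca1 and Abcg1, the 2 genes detected on all arrays whose levels spanned at least 2-fold. The measure was the root mean square distance between centred levels over 4 arrays, among 12920 genes with a symbol. Among the nearest to Abca1 were Lhfpl3, a tetraspan membrane protein (0.07), and Scube3, a secreted protein (0.09). The nearest to Abcg1 were Atp6v0e2, a proton pump subunit, Galnt4, an enzyme of protein glycosylation, and Tmsb15l, of the thymosin beta family, at 0.01 to 0.02. Abcg4 ranked 176th for Abcg1, at 0.12. Abca1 and Abcg1 were 0.30 apart. At that distance Abcg1 ranked 179th for Abca1, whereas Abca1 ranked 2461st for Abcg1.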

How the data were processed

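RNA of 4 pooled samples, 1 per group, was labelled with Cy3 and hybridised to 1-colour arrays. The submitters' processing notes name Agilent Feature Extraction 10.7.3.1. Per the file headers, spot intensity was deposited after background subtraction and detrending, with no scaling between arrays, and probes were placed on mm9. The lutein file was saved at 3 significant digits with 57 gene names altered, so names came from the vehicle array. Of 55681 probes 28331 (50.9%) matched RefSeq accessions (GRCm38.p6), which replaced 1403 names. The value table deposited by the authors gives linear signal over a constant for each array (494 on the vehicle array, 434 with 4-OHT, 469 with vitamin E and 479 with lutein; column medians 0.0794, 0.0949, 0.0736 and 0.0847), neither logged nor centred, as found by comparison with the scanner values. It served as an alternative, after taking log2.

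Control spots and outlier spots (137 to 164 per array) were dropped, log2 intensities were set relative to the array's 75th percentile over gene spots, and a probe took the mean of its spots. A probe was well above background if more than 0.5 of its spots were. A gene took its probe with the highest mean, and entered a comparison if detected on at least 1 array. Dim values were raised to their array's lowest detected signal, which gives a bound ("at least"). The number of arrays, 1 per group, limits the precision. Summed levels include every listed marker, detected or not.

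The genes and the lists were chosen with earlier results of these data known. Named were all 8 genes and, of each other list, the genes past 2-fold in any of 5 comparisons, or otherwise the first 3. Genes among the 3 nearest profiles were named for genes spanning 2-fold. A few genes that these rules name are not reported here. Alternatives were scaling on the median, quantiles or spike-ins, normexp (offset 50, limma 3.58.1, R 4.3.3), the mean of probes, other detection filters, the value table, and limits of 1.5-fold and 4-fold. Other steps used Python 3.11.15, NumPy 2.4.6, pandas 2.3.3 and matplotlib 3.10.9, and were tested on simulated data.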

Additional observations from a re-analysis of the deposited data

How the results depend on the processing

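No paired analysis was possible because only 1 array stood for each group, and slide could not be a block. Of 280 values of single genes under the alternatives, 269 stayed within the spot-to-spot SD of the main value and 11 did not. Of the 184 whose main value lay beyond that SD, 0 changed sign. Many of these values could not move, so the counts overstate stability. The detection filters leave a gene detected on both arrays unchanged, as does the mean of probes for a gene with 1 probe. The value table holds the same signal over another constant. All 11 came from quantile or spike-in scaling, and spike-in scaling moved every measured gene for vitamin E added. Spike-in scaling (7 of 10 probes) shifted all differences together, and the median of all genes moved from -0.06 to -0.21 for 4-OHT against vehicle, from 0.08 to 0.30 for vitamin E and from 0.08 to 0.19 for lutein. It gave 3 genes lower with 4-OHT, 2 higher with vitamin E added (median 0.75) and 0 lower for vitamin E against vehicle. A limit of 1.5-fold gave 3 higher with vitamin E added, and 2 (vitamin E) and 3 (lutein) lower than vehicle. A limit of 4-fold gave 0 lower in each comparison with vehicle. The cause of the spike-in shift was not tested.

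Counts of all genes depended more on the processing. For 4-OHT against vehicle, 695 lower and 1712 higher became 350 and 903 with normexp and 1487 and 3147 without a detection filter, with 1117 lower under spike-in scaling. For vitamin E added, 1952 lower and 329 higher became 1044 and 133 with normexp and 3713 and 969 without a filter, with 740 and 684 higher under spike-in and quantile scaling. For lutein added, 845 lower and 253 higher became 307 and 84 with normexp and 2135 and 1342 without a filter, with 75 higher on probes detected on both arrays and 380 with quantiles. Against vehicle, 424 lower and 232 higher with vitamin E became 96 and 84 with normexp, 217 and 130 on probes detected on both arrays, and 1560 and 874 without a filter, and 319 and 733 with lutein became 138 and 351, 204 and 473, and 1167 and 2106. Limits of 1.5-fold and 4-fold changed each of these counts by over 1.5 times. With 1 array per group and dim probes for Abcg5, Soat1 and the second Mylip probe, smaller differences could not be resolved.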
